A study of Homo sapiens with 12 samples.

Results

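10 genes used to mark progenitor or tumour-initiating cells were followed through RNA-seq of pancreatic adenocarcinoma cells sorted with the GCTM-5 antibody: EPCAM, CD24, CD44, ALCAM, NCAM1, MET, LGR5, PROM1, DCLK1 and ABCG2. They were chosen by name, and all 10 were found among the 23346 gene symbols of the deposited table. The cells were SW1990 and CFPAC-1, both established human pancreatic adenocarcinoma lines grown as monolayers. Each line was stained with GCTM-5, a mouse IgG1 antibody to a surface glycoprotein complex, and the gates kept strongly stained (positive) and unstained (negative) cells, so that cells of intermediate staining entered no group. The 4 groups were negative and positive SW1990 and negative and positive CFPAC-1 cells, with 3 samples each and no other treatment. Each line stands for 1 tumour, no normal pancreatic cells were included, and the labels do not say whether a line was cloned. The values are RPKM, reads normalized for the length of the gene and the depth of the library, so that levels of different genes can be set side by side. Reads were polyadenylated RNA summed over each gene, and isoforms of CD44 or DCLK1 were not separated. In bulk RNA of this kind, fewer cells with a transcript and less transcript per cell cannot be told apart.

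These genes do not form a single pathway. EPCAM, CD24, CD44, ALCAM and NCAM1 are surface glycoproteins of cell adhesion, MET and LGR5 are receptors for hepatocyte growth factor and R-spondins, PROM1 (CD133) is a glycoprotein of membrane protrusions, DCLK1 is a microtubule-associated kinase of tuft cells, and ABCG2 is an efflux transporter behind the dye-excluding side population. In the pancreas and in pancreatic tumours, combinations of such markers have been used to enrich cells able to form colonies, organoids or xenografts, and a marker of one tumour is not always a marker of another.

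Library totals lay between 9969697 and 26159330 reads, lowest in positive CFPAC-1 replicate 3. All 5 ductal epithelial markers looked at (KRT7, KRT8, KRT18, KRT19 and CDH1) had a mean of at least 1 RPKM in every group, and their summed level was 1568 to 1922 RPKM in negative SW1990, 4185 to 4679 in positive SW1990, 5188 to 5935 in negative CFPAC-1 and 6489 to 7905 in positive CFPAC-1 samples. Summed levels of 7 fibroblast markers were 12.7 to 22.6 RPKM for negative SW1990, 3.90 to 4.88 RPKM for positive SW1990 and at most 2.40 in CFPAC-1, with DCN and COL3A1 at or near 0 throughout and PDGFRA at most 0.143 RPKM in any group mean. LUM made up most of the SW1990 sums, with a mean of 13.2 RPKM when negative and 2.43 RPKM when positive, followed by COL1A1 (3.57 and 1.93 RPKM) and PDGFRB (1.76 and 0.0381 RPKM). The leukocyte marker PTPRC and the acinar list were also at or near 0, with sums of the acinar list of at most 0.295 RPKM. The leukocyte list of 5 genes summed to 34.6 to 48.5 RPKM for negative SW1990, 15.4 to 33.0 RPKM for positive SW1990 and to 118.4 to 136.4 and 111.5 to 166.8 in negative and positive CFPAC-1, most of it CD68. Endothelial and neuroendocrine lists were highest in negative SW1990, at 14.8 to 18.8 RPKM (mostly CDH5) and 8.15 to 8.74 RPKM (mostly CHGB). Both were at most 2.17 RPKM in the other groups. The epithelial and fibroblast sums thus differed between the sorted SW1990 populations in opposite directions, and their part in the marker levels below was not tested.

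The 10 genes spanned almost the whole range of expression. CD24 was above 99.8% of all genes in CFPAC-1, CD44 above 99.5% in negative SW1990 and EPCAM above 99.3% in negative CFPAC-1. LGR5 and NCAM1 were at or near the limit of the depth in all groups. With a mean of at least 0.1 RPKM over the 12 samples required for the fit, 8 of the 10 genes were tested and LGR5 and NCAM1 were not.

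**Figure D1:**
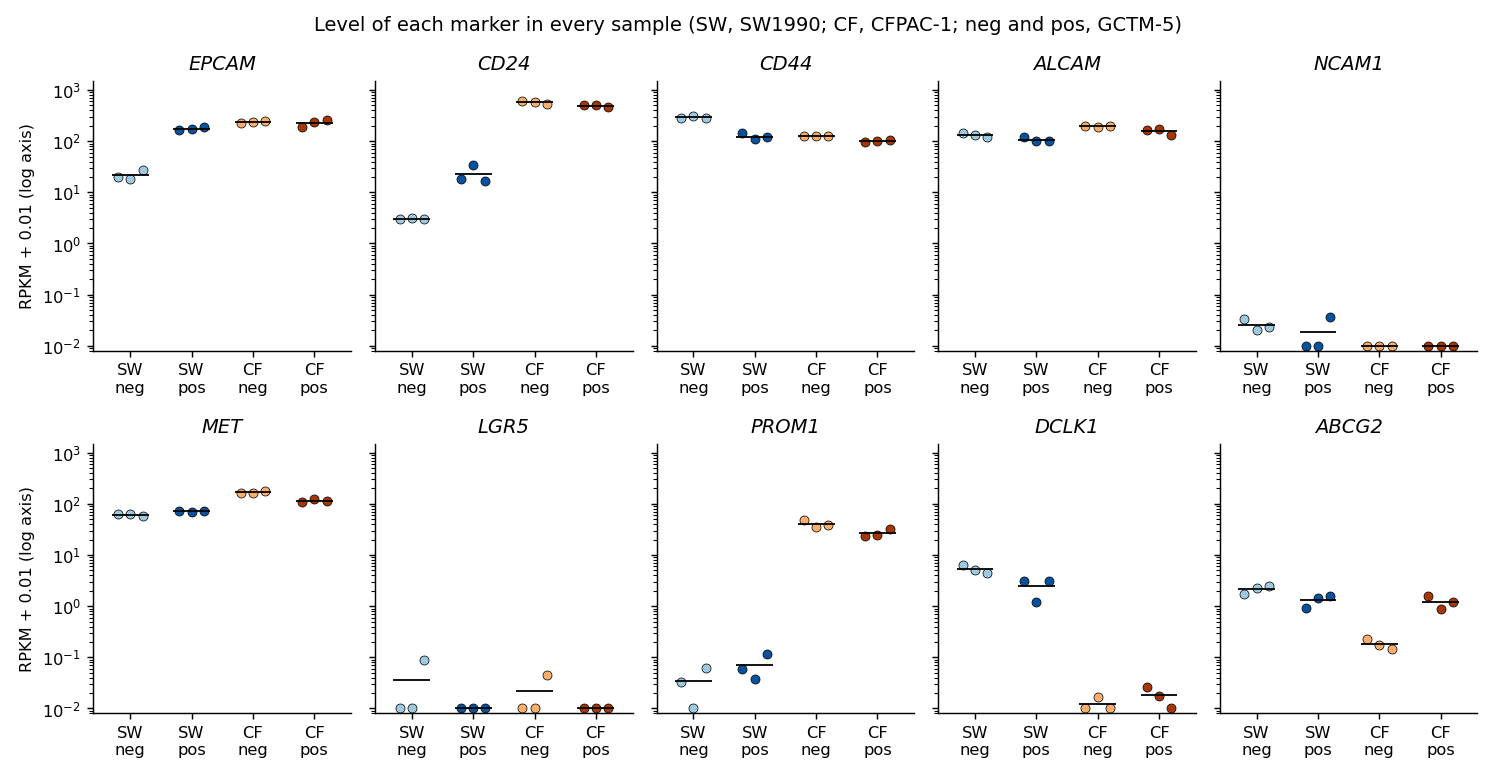
RPKM plus 0.01 on a log axis for each of the 10 genes. Each point is a sample and each line the mean of 3 samples, for negative (neg) and positive (pos) SW1990 (SW) and CFPAC-1 (CF) cells. CD24 and PROM1 are higher in CFPAC-1 than in SW1990, and DCLK1 is higher in SW1990 than in CFPAC-1. EPCAM is lower in negative SW1990 cells, at 18.0 to 27.2 RPKM, than in the other groups.

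The first question was how the markers differed between GCTM-5 positive and negative cells of a line. A gene was called when the fitted change exceeded 2-fold with an unadjusted p under 0.01 in limma. In SW1990, EPCAM and CD24 were called higher in positive cells, 2 of the 8 genes tested, where 4.59% of all 16236 genes tested were. CD44 and DCLK1 were called lower, again 2 of 8, where 7.48% of all genes were. In CFPAC-1, only ABCG2 was called higher, 1 of 8 against 5.65% of all genes, and none was called lower, against 4.13%. With an unadjusted p under 0.01 and no fold threshold, CD44 and MET were also lower in positive CFPAC-1 cells, and MET was higher in positive SW1990 cells. The median change of the 8 genes was -0.03 on the log2 scale in SW1990 and -0.27 in CFPAC-1, against -0.04 and 0.05 over all genes. Centring every sample on its median changed no call among the 8 genes in these comparisons, but turned the balance over all genes in CFPAC-1 from 917 higher and 671 lower to 724 higher and 858 lower.

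**Figure D2:**
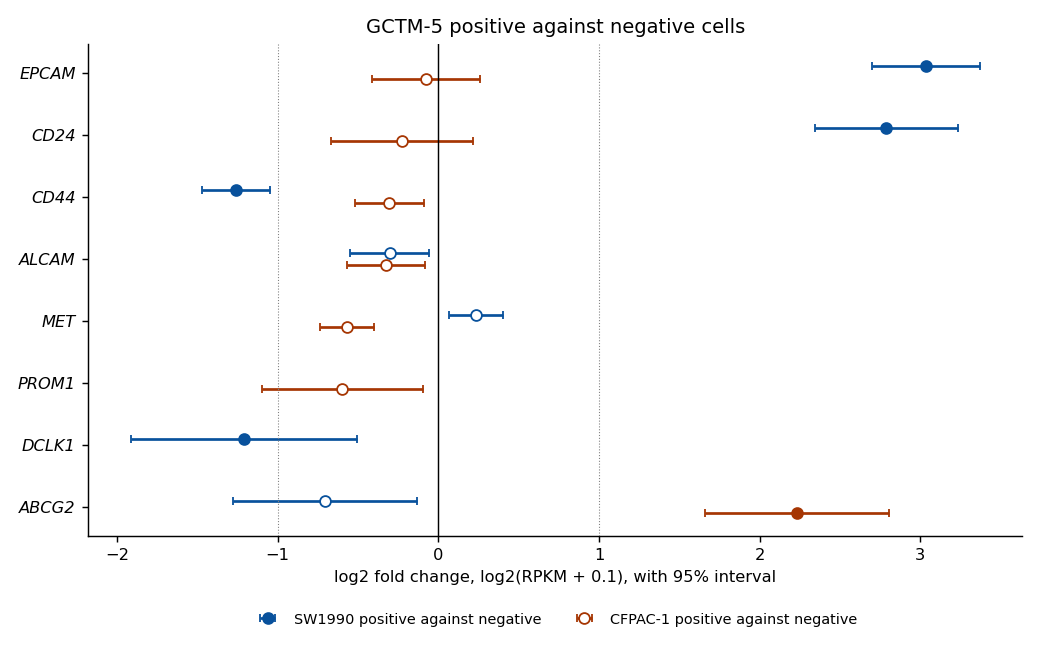
Fitted log2 fold change of positive over negative cells with its 95% interval, for SW1990 (blue) and CFPAC-1 (brown), 3 against 3 samples each. Filled points were called, dotted lines mark 2-fold, and the values of PROM1 in SW1990 and DCLK1 in CFPAC-1 are left out because both populations lay close to the limit of the depth. EPCAM (3.04) and CD24 (2.79) stand to the right in SW1990 only, and ABCG2 (2.23) in CFPAC-1 only.

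The samples of the sorted populations did not overlap for 3 genes higher and 4 lower in positive SW1990 cells, where 17.9% and 25.4% of all genes were separated in these directions, and for 1 higher and 5 lower in positive CFPAC-1 cells, where 28.1% and 20.4% were.

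The second question was whether a sort change differed between the lines, tested as the difference of the 2 changes at a Benjamini-Hochberg adjusted p under 0.05. EPCAM, CD24, MET and PROM1 had a larger (more positive) change in SW1990, 4 of 8 genes against 9.16% of all genes. CD44 and ABCG2 had a smaller (more negative) one, 2 of 8 against 17.8%. Over all genes the median difference was -0.15, and centring the samples on their medians turned the 1487 higher and 2887 lower differences into 1987 and 1988. The calls of EPCAM, CD24, CD44, ABCG2 and MET held under each of the 22 alternative settings run for this comparison, whereas that of PROM1 held in 9 of 22. PROM1 had only 0 to 8 reads per SW1990 sample, so no SW1990 change of its own could be measured.

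Among the adhesion molecules, EPCAM, which joins epithelial cells and marks carcinomas and pancreatic progenitors, showed the largest sort change of the 8 genes in SW1990. Its gene lies on the plus strand at chr2:47572297-47614740 (GRCh37). The negative SW1990 samples read 19.7, 18.0 and 27.2 RPKM, the positive ones 162, 175 and 191 RPKM. Each positive sample lay above every negative one, with means of 176 ± 14.5 and 21.7 ± 4.92 RPKM (SD, n = 3 each), an 8.13-fold ratio. The fitted log2 change was 3.04 (95% interval 2.70 to 3.37, limma adjusted p = 1.58e-07).

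In CFPAC-1 the EPCAM levels were 223, 238 and 250.0 RPKM in negative and 187, 235 and 258 RPKM in positive samples. These ranges overlapped, and the log2 change was -0.08 (interval -0.41 to 0.26, limma adjusted p = 0.729). The difference between the lines was 3.12 (interval 2.64 to 3.59, limma adjusted p = 5.25e-06). In order of level, negative and positive CFPAC-1 and positive SW1990 cells overlapped with their neighbours, and negative SW1990 cells stood apart below them. A microRNA gene within EPCAM on the same strand, MIR559, is listed separately in the table with 21 reads or more in all 3 of these groups and 1 read in negative SW1990, whereas 2244 reads or more were behind every group mean of EPCAM.

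Of 6 listed EPCAM partners, 1 was called higher and 1 lower in positive SW1990 cells and none in CFPAC-1. CLDN7, a tight junction claudin that binds EPCAM, rose from 11.1 ± 4.09 to 87.8 ± 19.5 RPKM between the SW1990 populations (SD, n = 3 each), a log2 change of 3.01 (limma adjusted p = 1.15e-06). TSPAN8, a tetraspanin of the same membrane complexes, fell by 2.15 on the log2 scale (limma adjusted p = 0.00258), from 1.56 ± 0.938 to 0.264 ± 0.159 RPKM. ADAM17, a protease that sheds surface proteins, was called in neither line. Over the 12 samples, the genes whose log2(RPKM + 0.1) followed EPCAM most closely were RAB25 (Pearson r = 0.997), ST14 (0.996) and ANKRD22 (0.995), given as a description, since the samples fall into 4 groups.

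CD24, a small mucin-like anchor protein that binds P-selectin and SIGLEC10, spanned the widest range of the genes above the depth limit in all groups. The negative SW1990 samples had 3.04, 3.19 and 2.96 RPKM, the positive SW1990 samples 17.9, 34.1 and 16.9 RPKM. The populations did not overlap, and positive replicate 2 lay well above the other two. The log2 change was 2.79 (interval 2.35 to 3.23, limma adjusted p = 1.23e-06) and 2.47 without that replicate, and the means had a 7.49-fold ratio. CFPAC-1 samples had 608, 577 and 539 RPKM when negative and 502, 514 and 456 RPKM when positive. The negative samples all lay above the positive ones, but the fitted change of -0.23 was not past the test (interval -0.67 to 0.22, limma adjusted p = 0.41). The difference between the lines was 3.02 (limma adjusted p = 2.62e-05). All 4 groups were separate in order, and even positive SW1990 cells were 21.4-fold below positive CFPAC-1 cells.

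The locus behind the CD24 counts is uncertain. The GRCh37 annotation used here lists no CD24 gene and 4 processed pseudogenes named for it, on chromosomes 1, 3, 15 and Y, none of which is a row of the table, and how reads matching several copies were counted is not given in the sources used here. RefSeq places CD24 on chromosome 6 of GRCh38.p14. P-selectin, SELP, moved in the other direction in SW1990, where it fell by 4.03 on the log2 scale (limma adjusted p = 3.29e-05), with means of 30.2 ± 7.93 RPKM when negative and 1.88 ± 0.892 RPKM when positive, and SIGLEC10 was at most 0.415 RPKM in any group mean. Among the genes closest to CD24 in pattern over the 12 samples were WNT7B (r = 0.994) and F2RL1 (0.994).

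In negative cells CD24, PROM1 and DCLK1 differed most between the lines and ALCAM least, and the 250 bases before their first listed RefSeq start are shown for comparison (GRCh38.p14, 5′ to 3′ in the direction of the gene). Capitals mark the E-box CACCTG or its reverse complement CAGGTG, the letters bound by the epithelial repressors of the SNAI and ZEB families.
CD24 upstream sequence (chr6:106975628-106975877, minus strand): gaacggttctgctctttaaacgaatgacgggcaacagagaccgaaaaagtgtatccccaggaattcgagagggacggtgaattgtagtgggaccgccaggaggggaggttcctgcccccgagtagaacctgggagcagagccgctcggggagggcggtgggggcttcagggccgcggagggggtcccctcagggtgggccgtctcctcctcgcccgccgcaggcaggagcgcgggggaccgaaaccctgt
PROM1 upstream sequence (chr4:16084024-16084273, minus strand): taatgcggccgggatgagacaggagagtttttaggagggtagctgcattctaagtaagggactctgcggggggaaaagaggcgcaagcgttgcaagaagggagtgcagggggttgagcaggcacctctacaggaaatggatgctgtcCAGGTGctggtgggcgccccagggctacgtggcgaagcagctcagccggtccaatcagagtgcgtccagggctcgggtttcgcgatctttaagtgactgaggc
DCLK1 upstream sequence (chr13:36131940-36132189, minus strand): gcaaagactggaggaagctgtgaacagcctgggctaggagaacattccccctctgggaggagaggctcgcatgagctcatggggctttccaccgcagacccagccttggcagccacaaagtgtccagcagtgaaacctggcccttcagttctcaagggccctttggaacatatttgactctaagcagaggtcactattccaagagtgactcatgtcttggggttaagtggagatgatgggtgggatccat
ALCAM upstream sequence (chr3:105366659-105366908, plus strand): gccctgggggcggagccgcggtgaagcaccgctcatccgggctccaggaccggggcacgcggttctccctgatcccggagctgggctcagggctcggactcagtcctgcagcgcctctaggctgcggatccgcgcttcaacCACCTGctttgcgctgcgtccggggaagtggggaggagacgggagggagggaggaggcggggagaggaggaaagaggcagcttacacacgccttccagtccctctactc
RefSeq windows were matched for 7 of the 10 genes, 18 windows in all. An E-box stood in 5 of them, 3 of PROM1, 1 of CD24 and 1 of ALCAM, and in 17.5% of all 35116 promoter windows. TATAAA, on either strand, was in none of the 18 and in 10.7% of all windows. CCGCCC, on either strand, was in 9 of the 18 and in 42.6% of all windows. Some windows of ABCG2 and of CD24 partly overlap, so the same site can be counted more than once. In PROM1 the first window has the E-box 103 bases before the start and in ALCAM 109 bases before it. PROM1 was near 0 in SW1990 and ALCAM abundant in all groups. These letter matches are descriptions and not measured binding.

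CD44, the hyaluronan receptor, went the other way from EPCAM and CD24 in SW1990. Its gene lies on the plus strand at chr11:35160429-35253949 (GRCh37). The negative samples had 284, 312 and 281 RPKM and the positive ones 142, 108 and 118 RPKM, without overlap. The mean was 2.38-fold higher in negative cells, with a log2 change of -1.26 (interval -1.47 to -1.05, limma adjusted p = 2.08e-06). CFPAC-1 samples had 126, 125 and 124 RPKM when negative and 96.5, 103 and 104 RPKM when positive. These did not overlap either, but the log2 change was only -0.30 (interval -0.52 to -0.09, limma adjusted p = 0.0296), under the 2-fold limit. The difference between the lines was -0.96 (interval -1.26 to -0.65, limma adjusted p = 0.000432). Negative SW1990 cells stood above the other 3 groups, while negative CFPAC-1 and positive SW1990 cells overlapped at 125 ± 1.07 and 123 ± 17.4 RPKM (SD, n = 3 each).

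CD44 and CD24 were also set against each other in every sample. The ratio of CD44 to CD24 was 93.6, 97.8 and 95.1 in negative SW1990 samples, 7.92, 3.17 and 7.004 in positive SW1990, 0.207, 0.216 and 0.230 in negative CFPAC-1 and 0.192, 0.201 and 0.228 in positive CFPAC-1 samples. The ratio separated the SW1990 populations from each other and from CFPAC-1, and overlapped between the CFPAC-1 populations.

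**Figure D3:**
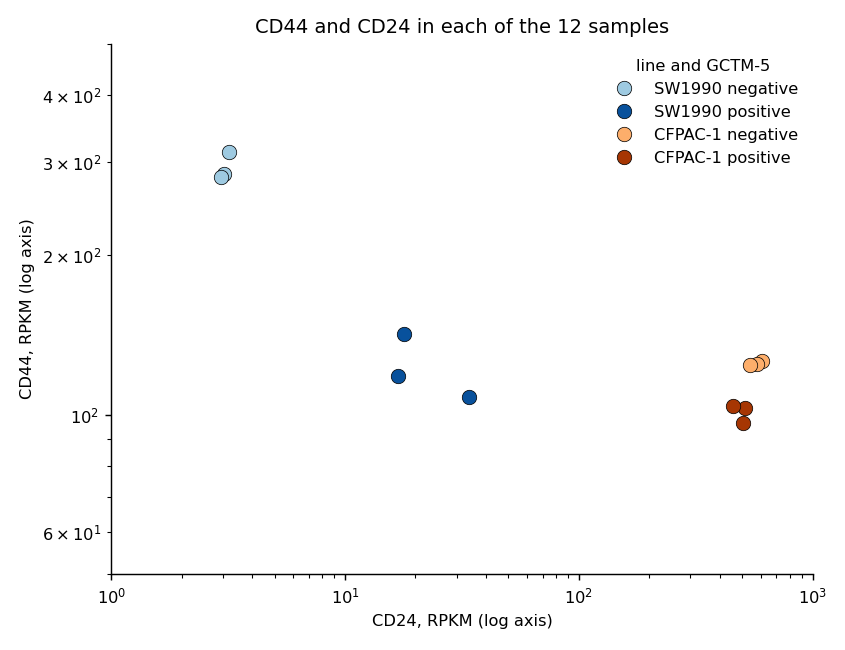
CD44 against CD24 in each of the 12 samples, both as RPKM on log axes, coloured by line and GCTM-5 population. Negative SW1990 samples lie at the upper left (CD44 281 to 312, CD24 2.96 to 3.19), positive SW1990 in the middle and both CFPAC-1 populations at the right.

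Among 8 listed partners and regulators of CD44, 2 were called higher and 1 lower in positive SW1990 cells, and 1 was called higher in positive CFPAC-1 cells. The epithelial splicing factors ESRP1 and ESRP2, which act on CD44 exons, were the 2 that rose in SW1990, ESRP1 from 5.70 ± 2.13 to 65.6 ± 4.68 RPKM (SD, n = 3 each, log2 change 3.56, limma adjusted p = 2.69e-07) and ESRP2 by 1.90 (limma adjusted p = 1.42e-06). In CFPAC-1 their log2 changes were 0.09 and 0.77, not called, and that of ESRP1 turned to the other sign when samples were centred or quantile-normalized. HAS2, a hyaluronan synthase, fell in SW1990 by 1.82, from 0.348 ± 0.0722 RPKM to 0.0297 ± 0.0376 RPKM. HMMR, a second hyaluronan receptor and a mitotic gene, rose in CFPAC-1 from 10.9 ± 1.84 to 24.2 ± 4.87 RPKM (log2 change 1.13, limma adjusted p = 0.00052). The membrane linkers EZR and MSN stayed under 2-fold in both lines, with log2 changes of 0.99 and -0.74 in SW1990. CDC42EP4, HEG1 and C11orf95 were closest to CD44 over the 12 samples (r = 0.979, 0.975 and 0.973).

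ALCAM (CD166), an immunoglobulin-family adhesion molecule of stem cells and leukocytes, was among the steadiest of the 10 genes. Its gene lies on the plus strand at chr3:105085753-105295744 (GRCh37). Negative SW1990 samples had 142, 134 and 122 RPKM and positive ones 120.1, 102 and 101 RPKM. CFPAC-1 samples had 197, 189 and 197 RPKM when negative and 163, 174 and 132 RPKM when positive. Positive samples were lower without overlap in both lines, by 0.30 on the log2 scale in SW1990 (limma adjusted p = 0.0631) and 0.33 in CFPAC-1 (limma adjusted p = 0.0396), neither past the criterion. The difference between these changes was 0.02 (interval -0.32 to 0.37, limma adjusted p = 0.937).

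Of 2 listed ALCAM partners, L1CAM, a neural adhesion molecule, fell in positive SW1990 cells from 16.6 ± 2.38 to 8.12 ± 2.61 RPKM (limma adjusted p = 0.00728) and was at most 0.105 RPKM in CFPAC-1 means, while CD6, the leukocyte ligand, was at most 0.412 RPKM. MCAM, a related endothelial and melanoma adhesion molecule, moved in opposite directions, falling by 1.43 in SW1990 (limma adjusted p = 0.0156) and rising by 2.19 in CFPAC-1 (limma adjusted p = 0.00124). MCAM means were low in SW1990, at 0.680 RPKM when negative and 0.188 RPKM when positive, and 1.43 and 6.88 RPKM in CFPAC-1. Its SW1990 change ranged from -1.80 to -0.50 over the alternative settings. The SW1990 calls were kept in 18 of 23 alternative settings for MCAM and in 19 of 23 for L1CAM. LYSMD3, SHOC2 and SNRNP48 were closest to ALCAM in pattern (r = 0.983, 0.969 and 0.965).

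NCAM1, the neural and endocrine adhesion molecule, was at or near the limit of the depth everywhere. Negative SW1990 samples had 2, 1 and 1 reads, positive SW1990 samples 0, 0 and 2 reads, and all 6 CFPAC-1 samples 0 reads. These counts assume the shortest length that gives whole reads, and could be a common multiple, since so few values do not fix the length. A count of 0 allows up to 3 reads, equal at that length to 0.0269 to 0.0706 RPKM in the CFPAC-1 libraries. Counting error only is covered by such limits, and no difference of NCAM1 between the groups was tested. Its relative NCAM2 was at 0 in all samples and the polysialic acid enzymes ST8SIA2 and ST8SIA4 were at or near 0. FGFR1, a receptor that NCAM1 engages, was measured well and moved in opposite directions, from 18.9 ± 2.92 to 8.59 ± 1.505 RPKM in SW1990 (log2 change -1.13, limma adjusted p = 0.00303), whereas CFPAC-1 means were 2.43 ± 0.875 RPKM when negative and 5.89 ± 1.15 RPKM when positive (1.28, limma adjusted p = 0.00144). The difference for FGFR1 was -2.40 (limma adjusted p = 0.000289).

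MET, the receptor of hepatocyte growth factor, was abundant in both lines. MET is encoded on the plus strand at chr7:116312250-116438431 (GRCh37). Negative SW1990 samples had 62.8, 62.3 and 58.1 RPKM and positive ones 71.3, 70.2 and 73.8 RPKM. Negative CFPAC-1 samples had 167, 164 and 182 RPKM and positive ones 109.7, 123 and 113 RPKM. In neither line did the populations overlap, positive cells being higher in SW1990 (log2 change 0.23, interval 0.07 to 0.40, limma adjusted p = 0.0377) and lower in CFPAC-1 (-0.57, interval -0.73 to -0.40, limma adjusted p = 0.000235). Both changes were under 2-fold. Their difference was 0.80 (interval 0.57 to 1.04, limma adjusted p = 0.000262), and all 4 groups were separate in order of level.

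The ligand HGF was listed at 0 in all 12 samples and its activator HGFAC at no more than 8 reads in any. Of 9 listed partners and regulators of MET, 7 were fitted. SPINT1 and SPINT2, membrane inhibitors of the proteases that activate the ligand, were the 2 called, and both rose in positive SW1990 cells, by 1.71 (limma adjusted p = 0.000211) and 1.57 (limma adjusted p = 5e-06). In CFPAC-1 their log2 changes were -0.69 and -0.33. The adaptors GAB1 and GRB2 and the ubiquitin ligase CBL had log2 changes between -0.30 and 0.27 in both lines. The related receptor MST1R (RON) rose in SW1990 from 8.84 ± 1.41 to 27.2 ± 1.65 RPKM (log2 change 1.62, limma adjusted p = 7.37e-05), and its log2 change in CFPAC-1 was 0.17. UBR1, ERBB2 and RNF39 followed MET most closely over the 12 samples (r = 0.990, 0.988 and 0.988).

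LGR5, the R-spondin receptor of intestinal stem cells, was nearly undetected. It was above 0 only in negative SW1990 replicate 3, at 0.0786 RPKM, and negative CFPAC-1 replicate 3, at 0.0348 RPKM, the equivalent of 2 reads and 1 read, or of a common multiple of these since the gene's counted length could not be fixed from so few values. At the shortest length that gives whole reads, the limit of 3 reads lay between 0.0797 and 0.209 RPKM over the 12 libraries. A longer length would lower this limit and raise the read counts. LGR5 was not fitted, and no difference between the groups was tested. Its relatives were measured. LGR4 means in SW1990 were 21.1 ± 0.837 RPKM when negative and 17.6 ± 0.482 RPKM when positive, and those in CFPAC-1 were 50.5 ± 1.35 and 47.1 ± 4.14 RPKM, with no call in either line. LGR6 fell in positive SW1990 cells by 2.21, from 10.97 ± 0.374 to 2.37 ± 0.665 RPKM (limma adjusted p = 0.0011), and was at most 0.274 RPKM in CFPAC-1 means.

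Of 7 listed genes around LGR5, the 4 R-spondins were too low to be fitted, RSPO3 being the highest at 0.206 RPKM in negative SW1990 cells. AXIN2, a feedback target of Wnt signalling, fell in positive cells of both lines, by 3.48 in SW1990 (limma adjusted p = 8.33e-07) and by 1.38 in CFPAC-1 (limma adjusted p = 0.00109), at low levels of 1.94 ± 0.237 to 0.0833 ± 0.0291 RPKM and 0.599 ± 0.0489 to 0.174 ± 0.0643 RPKM (SD, n = 3 each). RNF43, a ligase that removes Wnt receptors, was at 10.4 ± 2.06 RPKM in negative CFPAC-1 and 0.0291 ± 0.0259 RPKM in negative SW1990 cells. Its called rise in SW1990 rested on 8 reads in negative and 42 in positive cells, and was kept in 17 of 23 alternative settings.

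PROM1 (CD133) was well expressed in CFPAC-1 and near the limit of the depth in SW1990. It is encoded on the minus strand at chr4:15964699-16086001 (GRCh37). CFPAC-1 samples had 49.3, 35.6 and 37.9 RPKM when negative and 23.8, 25.0 and 32.1 RPKM when positive. The negative samples lay above the positive ones, with means of 40.9 ± 7.33 and 27.0 ± 4.45 RPKM (SD, n = 3 each), but the log2 change of -0.60 did not pass (interval -1.10 to -0.10, limma adjusted p = 0.0599). SW1990 samples had 2, 0 and 4 reads when negative and 4, 2 and 8 reads when positive, at most 0.105 RPKM. The populations overlapped and are given without a fold. The difference between the lines of 0.95 (limma adjusted p = 0.049) includes these SW1990 values, and leaving out single samples moved its adjusted p between 0.0301 and 0.121. FGFBP2, whose annotated span overlaps the end of PROM1 on the same strand, had at most 6 reads in any sample.

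PROM2, the related prominin, did not share this pattern. PROM2 means in SW1990 went from 2.44 ± 0.719 to 19.4 ± 1.66 RPKM (log2 change 2.98, limma adjusted p = 2.85e-07), and read 14.04 ± 0.854 RPKM in negative and 22.6 ± 1.99 RPKM in positive CFPAC-1 cells (0.68, limma adjusted p = 0.0105, not called). GSTT1, CDKN2B and TOX3 followed PROM1 most closely over the 12 samples (r = 0.998, 0.998 and 0.998), and were at a mean of 0 in both SW1990 groups.

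DCLK1, the doublecortin-like kinase, was low to moderate in SW1990 and had at most 6 reads in any CFPAC-1 sample. It is encoded on the minus strand at chr13:36342789-36705519 (GRCh37). Negative SW1990 samples had 6.51, 5.13 and 4.52 RPKM and positive ones 3.06, 1.18 and 3.08 RPKM. They did not overlap, and positive replicate 2 was the lowest. The mean was 2.21-fold higher in negative cells and the log2 change was -1.21 (interval -1.91 to -0.51, limma adjusted p = 0.0143). Without positive replicate 2 the change was -0.78 (limma adjusted p = 0.0342) and without negative replicate 1 it was -1.07 (limma adjusted p = 0.0575), neither of which passed the criterion. The CFPAC-1 samples had 0, 2 and 0 reads when negative and 6, 2 and 0 reads when positive. Against the limit of 3 reads per library, negative SW1990 cells were at least 501-fold higher than negative CFPAC-1 cells.

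The relative DCLK2 was also lower in positive SW1990 cells, with 63, 45 and 25 reads in negative and 0, 2 and 0 reads in positive samples (log2 change -2.39, limma adjusted p = 0.000213), while DCLK3 and DCX were at or near 0 in all groups. MFAP5, HAPLN1 and SCG2, a matrix protein, a hyaluronan-link protein and a secretogranin, were closest to DCLK1 in pattern (r = 0.996, 0.996 and 0.995). SCG2 means ran from 401 RPKM in negative SW1990 to 80.8 RPKM in positive SW1990 and 0.243 and 0.411 RPKM in CFPAC-1 cells.

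ABCG2, the transporter, was the only one of the 8 tested genes called in CFPAC-1. Its gene lies on the minus strand at chr4:89011302-89152780 (GRCh37). Negative CFPAC-1 samples had 0.220, 0.165 and 0.136 RPKM, from 19, 16 and 12 reads, and positive ones 1.56, 0.878 and 1.18 RPKM, from 181, 73 and 52 reads. There was no overlap, the ratio of the means was 6.94 and the log2 change was 2.23 (interval 1.66 to 2.81, limma adjusted p = 0.000111). In SW1990 the direction was opposite, with 1.74, 2.30 and 2.50 RPKM in negative and 0.931, 1.41 and 1.59 RPKM in positive samples. These did not overlap, and the log2 change of -0.71 was not past the test (interval -1.28 to -0.13, limma adjusted p = 0.0653). The difference between the lines was -2.94 (interval -3.75 to -2.13, limma adjusted p = 0.000176). Positive SW1990 and positive CFPAC-1 cells overlapped at 1.31 ± 0.342 and 1.20 ± 0.343 RPKM (SD, n = 3 each), and negative CFPAC-1 cells stood apart below.

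The 7 listed efflux and lipid transporters related to ABCG2 were all fitted. Among them ABCG1, a cholesterol exporter, was called lower in SW1990 (log2 change -1.90, limma adjusted p = 0.00301) and ABCB1, the P-glycoprotein of multidrug resistance, higher in CFPAC-1, from 0.414 ± 0.125 to 1.57 ± 0.527 RPKM (log2 change 1.67, limma adjusted p = 0.00109). ABCB1 was at 0 reads in all 6 SW1990 samples. For 6 of the 7 the difference of the sort changes, SW1990 minus CFPAC-1, was called as negative, ABCC3 being the exception, where 17.8% of all genes were. The calls of ABCG1, ABCB1 and ABCC2 among them were each lost under some alternative settings, that of ABCG1 being kept in 9 of 22. The difference of ABCB1 (-1.67) is its CFPAC-1 change with the sign reversed and shows no change in SW1990. ABCC2 was also low in SW1990, with means of 0.122 RPKM when negative and 0.019 RPKM when positive. NRARP, INHBA and SFXN5 were closest to ABCG2 over the 12 samples (r = 0.977, 0.971 and 0.970).

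**Figure D4:**
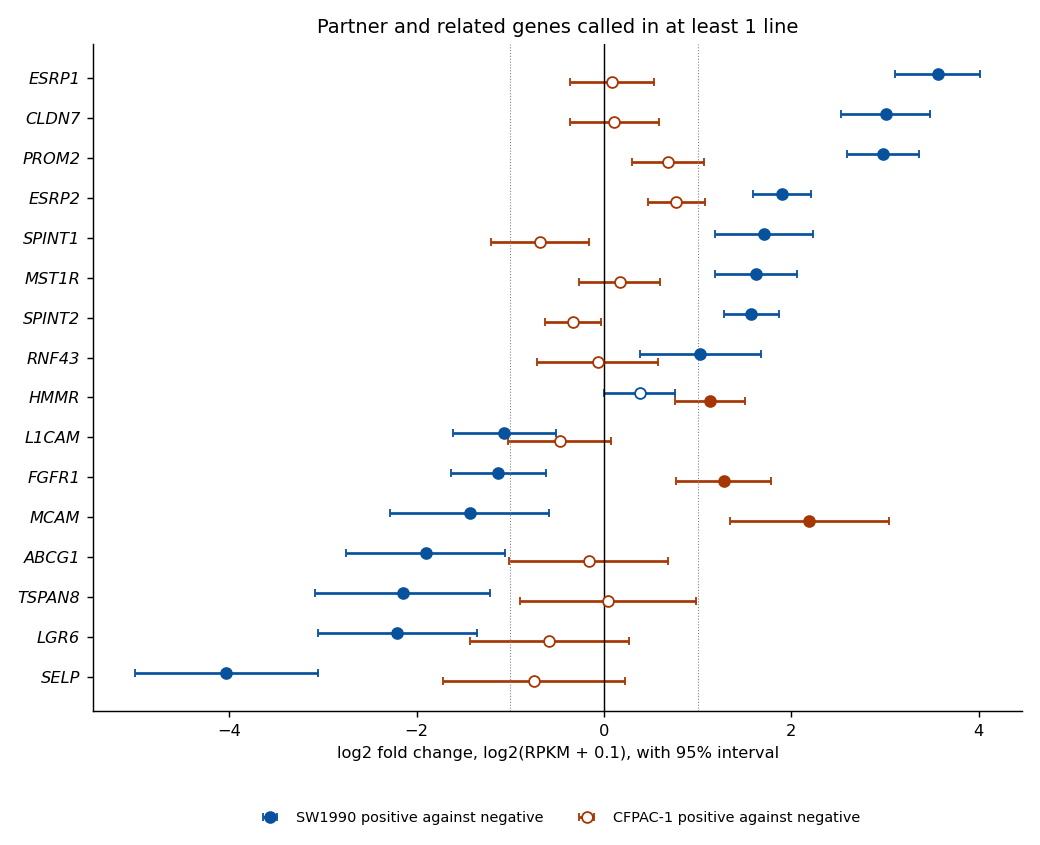
Fitted log2 fold change of positive over negative cells with its 95% interval in SW1990 (blue) and CFPAC-1 (brown) for 16 listed partners and relatives of the 10 genes that were called in at least 1 line and had a mean of at least 1 RPKM. Filled points were called and dotted lines mark 2-fold. ESRP1, CLDN7 and PROM2 lie near 3 or above in SW1990, SELP near -4, and FGFR1 and MCAM have opposite signs in the lines.

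The third question was how the lines differed within each sorted population. In negative cells, CD44, DCLK1 and ABCG2 were called higher in SW1990, 3 of 8 genes against 21.9% of all genes, and EPCAM, CD24, PROM1 and MET lower, 4 of 8 against 15.0%. In positive cells DCLK1 was called higher, 1 of 8 against 14.8%, and CD24 and PROM1 lower, 2 of 8 against 13.7%. The median of all genes was 0.19 in the negative and 0.06 in the positive comparison, and relative to these shifts all the directions stayed as they were. These comparisons use the same samples as the sort comparisons and are not separate evidence.

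In negative cells the log2 difference of EPCAM, SW1990 over CFPAC-1, was -3.47 (interval -3.80 to -3.13, limma adjusted p = 2.67e-09), and in positive cells the difference was -0.36 (interval -0.69 to -0.02, limma adjusted p = 0.0622). The corresponding values of CD24 were -7.50 and -4.49 (limma adjusted p = 5.79e-11 and 4.51e-09), and those of MET were -1.48 and -0.68 (limma adjusted p = 8.56e-09 and 9.27e-06), the latter under 2-fold. The gap between the lines was thus smaller in positive than in negative cells for all 3. CD44 was 1.23 higher in negative SW1990 cells (limma adjusted p = 3.62e-07) and 0.27 higher in positive ones (limma adjusted p = 0.0305). ABCG2 was 3.05 higher in negative SW1990 cells (limma adjusted p = 6.99e-07), and in positive cells the difference was 0.12 (interval -0.46 to 0.69, limma adjusted p = 0.724). The fitted values of PROM1 (-8.36 and -7.42) and DCLK1 (5.73 and 4.44) were called in every setting, but their size follows the pseudocount, that of PROM1 in negative cells ranging from -11.03 to -5.34.

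**Figure D5:**
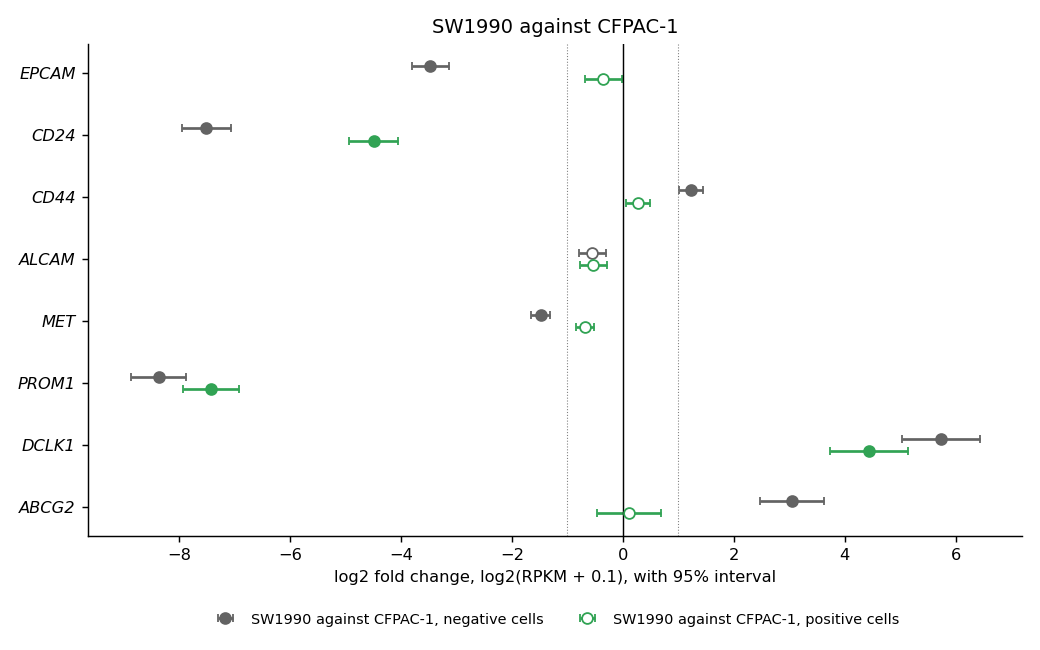
Fitted log2 fold change of SW1990 over CFPAC-1 with its 95% interval, in negative (grey) and positive (green) cells, 3 against 3 samples each. Filled points were called and dotted lines mark 2-fold. EPCAM, MET, CD44 and ABCG2 lie nearer to 0 in positive than in negative cells, and ALCAM was called in neither (-0.55 and -0.53).

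Counted over all members, 38 partners, ligands and regulators were listed, of which 29 were fitted. In positive cells 6 were called higher and 6 lower in SW1990 and 2 higher and 1 lower in CFPAC-1, with median log2 changes of 0.23 and -0.07. Over all genes, 4.59% were called higher and 7.48% lower in SW1990 and 5.65% and 4.13% in CFPAC-1. Of 18 related proteins 15 were fitted, 3 called higher and 4 lower in SW1990 and 2 higher and 0 lower in CFPAC-1, with medians of -0.49 and 0.17. The medians over all genes were -0.04 and 0.05, and both lists were drawn up with earlier results of these data known.

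A further list held 20 other progenitor and tumour-initiating markers, of which 16 were fitted. In positive SW1990 cells 1 was called higher (POU5F1) and 2 lower (CXCR4 and LRIG1), and in positive CFPAC-1 cells 2 higher (CXCR4 and ALDH1A1) and 1 lower (ALDH1A3). These counts of 1 or 2 of 16 stand beside shares over all genes of 4.59% and 7.48% in SW1990 and 5.65% and 4.13% in CFPAC-1. The 5 genes were named after their values were seen. CXCR4, the chemokine receptor, fell in positive SW1990 cells (3.94 ± 0.738 against 0.276 ± 0.0924 RPKM) and rose in positive CFPAC-1 cells (0.239 ± 0.181 against 1.25 ± 0.173 RPKM), with a difference between the lines of -5.61 on the log2 scale (limma adjusted p = 3.04e-05). ALDH1A1 had at most 4 reads in any SW1990 sample and rose in CFPAC-1 from 30.0 ± 0.860 to 68.9 ± 20.5 RPKM, whereas ALDH1A3, another retinaldehyde dehydrogenase, fell there from 968 ± 33.2 to 429 ± 94.8 RPKM.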

How the data were processed

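The data were RNA-seq libraries of sorted cells, 3 from each population of each line. Reads had been mapped by the authors on hg19 (GRCh37) and counted by gene in QuasR, and the deposited RPKM values were normalized for library size and gene length. The annotation, the use of strand and the treatment of reads that match several genes are not given in the sources used here. Per the labels the kit was a strand-specific SureSelect kit, with Iscove's medium and a peroxidase-labelled secondary antibody, whereas the paper names a TruSeq kit and a fluorescent one. The members, gene lists, motifs and tests were chosen with earlier results of these data known.

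A filter on the mean over the 12 samples (0.1 RPKM or more) kept 16236 of 23346 genes, and log2(RPKM + 0.1) was fitted with limma 3.58.1 in R 4.3.3 (lmFit, contrasts.fit, eBayes with trend) as 4 group means. Fold changes are on this scale, which understates the change of low genes. Tests were 2-sided, p-values were adjusted by the Benjamini-Hochberg method across the genes kept, and a gene was called over 2-fold at an unadjusted p under 0.01, the limits the study names, or, for the difference between lines, at an adjusted p under 0.05. The study used TCC, which needs counts and was not used here. An exact permutation test of 3 against 3 samples cannot give a p below 0.1. Replicates were separate sorts, and p-values measure only the spread between these samples.

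Library totals and reads were recovered from the RPKM values and the lengths of single-exon genes (Python 3.11.15, pandas 2.3.3, numpy 2.4.6, numba 0.67.0). All 19654 genes above 0 gave whole reads to within 0.001 of a read at the shortest length that fitted. For genes above 0 in few samples many lengths can fit, so whole reads alone do not fix their counts. The fit and the recovery were tested on simulated data, the test of recovered reads leaving out genes above 0 in few samples. Named were all 10 members, listed partners and relatives beside their member, for each member above 1 RPKM the 3 genes with the highest correlation over the samples, and genes that share a locus with a member. Some listed genes that this rule would name are not reported here. Alternatives were pseudocounts of 1 and 0.01, no filter, a filter at a mean of 1 RPKM, centring on the median, quantile normalization, separate fits, a replicate block, eBayes without a trend, another threshold, voom on the recovered reads, and each sample left out in turn. Locations are from GENCODE 44 mapped to GRCh37, promoter sequences from RefSeq (GRCh38.p14), and figures were drawn with matplotlib 3.10.9.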

Additional observations from a re-analysis of the deposited data

Results flagged for a closer look

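For 6 of the 8 genes tested the change between positive and negative cells differed between the lines by the interaction term of the limma fit, 4 of them with a more positive and 2 with a more negative change in SW1990, where 9.16% and 17.8% of all genes were called. Given as the change in SW1990 minus that in CFPAC-1 on the log2 scale, with 3 samples in each group, the differences were 3.12 for EPCAM, 3.02 for CD24, 0.80 for MET, 0.95 for PROM1, -0.96 for CD44 and -2.94 for ABCG2. EPCAM and CD24 were higher in 3 of 3 positive SW1990 samples than in every negative one, MET and ABCG2 separated the sorted samples in opposite directions in the 2 lines, and CD44 was lower in all positive samples of both lines by unequal amounts. The value of PROM1 rests on SW1990 samples with 0 to 8 reads and was called in 9 of 22 alternative settings.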

How the results depend on the processing

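Across 38 fitted values of single genes and 23 alternative settings, 866 values were recomputed: 837 kept their direction and side of the criterion, 19 lost the call, 4 gained it and 6 changed sign. The 6 were all of values not called, in fits that left out 1 sample. EPCAM in CFPAC-1 ranged from -0.178 to 0.054, the ALCAM difference between lines from -0.097 to 0.103 and ABCG2 between lines in positive cells from -0.077 to 0.326, the causes not being tested. With a pseudocount of 1, the number of the 8 tested markers called in CFPAC-1 fell to 0, since the larger pseudocount shrinks the log2 change of ABCG2 to 0.90 (limma adjusted p = 0.000615). DCLK1 in SW1990 lost its call in 5 settings and was kept in 18. Besides the omissions of a sample given above, these were pseudocounts of 1 (-0.94) and 0.01 (-1.25, limma adjusted p = 0.0919) and the fit of SW1990 alone (-1.21, limma adjusted p = 0.0802). The difference of DCLK1 between lines (-1.29, limma adjusted p = 0.0549) was called in 4 settings. Counts of called markers were 3 to 4 in SW1990 and 5 to 7 for the difference between lines, and stayed at 7 and 3 between lines in negative and positive cells. Over all genes, an adjusted p under 0.01 left 868 higher and 1544 lower differences between lines of 1487 and 2887, and quantile normalization gave 1988 and 2242. A pseudocount of 1 gave 489 higher and 612 lower calls in SW1990 in place of 746 and 1215, 475 and 284 in CFPAC-1 in place of 917 and 671, and 1500 and 1465 between lines in positive cells in place of 2402 and 2225. A filter at a mean of 1 RPKM gave 781 lower calls in SW1990 and 427 in CFPAC-1. The difference between lines cannot be had from separate fits. LGR5 and NCAM1 entered the fit without a filter only and are not reported from it.

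Whether same-numbered samples shared a sort could not be decided from these data. Deviations of same-numbered samples from their group means correlated at 0.185, 0.016 and 0.116 in SW1990 and at -0.02, 0.001 and -0.059 in CFPAC-1. Not every sample correlated best with its own number, but weak correlations do not exclude pairing. With a replicate block, 4, 1, 6, 7 and 3 markers were called in the 5 comparisons, as without it, and 749 higher and 1212 lower genes in SW1990. Depth limits PROM1 in SW1990, DCLK1 in CFPAC-1, and LGR5 and NCAM1 throughout.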
